A study of Sus scrofa with 20 samples.

Results

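Cadherins, claudins, occludin and connexins are cell surface proteins of the contacts between neighbouring cells, and their expression was compared between backfat and liver of Nanchukmacdon boars. The genes were chosen as a list of 10 symbols for these proteins, namely CDH1, CDH2, CDH11, CDH13, CLDN1, CLDN2, OCLN, GJA1, GJB1 and GJB2. A symbol was kept if it could be matched to a pig Ensembl gene ID, which held for 9 of the 10. GJB2 was not matched and was not analysed here. These 9 genes were among 31907 genes in the count table, and all 9 were among the 16275 genes that passed the filter on low counts.

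Nanchukmacdon is a pig breed. Backfat and liver were each taken from boars, with 5 RNA-seq libraries per tissue, and whole genome bisulfite libraries (WGBS) of the same tissues were made as well, which gave no value at single genes here. The labels give an age of 22 months, the methods of the study give a different average age, and all samples of both tissues were labelled WT and normal, with no treatment. Both groups are bulk tissue from 5 boars, and the number in the name of each library (65, 67, 69, 71 or 72) marks the boar. In bulk tissue, fewer cells of a type and less RNA per cell cannot be told apart.

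In adherens junctions, classical cadherins such as E-cadherin (CDH1) and N-cadherin (CDH2) bind the same kind of molecule on the neighbouring cell and are tied to actin through catenins. In tight junctions, claudins and occludin seal the space between cells and set which ions pass, and in liver they close the bile canaliculus between hepatocytes. Connexins assemble into gap junction channels through which ions and small molecules move from cell to cell, with connexin 32 (GJB1) known as the main connexin of hepatocytes and connexin 43 (GJA1) as the most widespread connexin of mesenchymal cells.

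The 10 RNA-seq libraries held between 43820042 and 61772737 counts each. Adipocyte markers (6 of 6 matched, among them ADIPOQ and PLIN1) summed to between 12400 and 15100 CPM (counts scaled to the size of the library) in backfat and to between 8.2 and 11.5 CPM in liver. Hepatocyte markers (8 of 8 matched, among them ALB and TTR) summed to between 24000 and 94600 CPM in liver. The same markers summed to between 180 and 226 CPM in 4 backfat libraries and to 561 CPM in backfat 69. Most of these backfat sums was APOA1, with 167 to 213 CPM in the 4 libraries and 482 CPM in backfat 69. Liver 67 stood apart, with 44.5% of its counts on 13 mitochondrial genes against 6.38% to 20.2% in the other libraries. It had the lowest hepatocyte sum of the liver libraries. TAT was highest there (762 CPM), APOA1 (8260 CPM) was not the lowest, and the other hepatocyte markers were lowest. Its endothelial marker sum (4 of 5 matched) was 555 CPM against 198 to 328 CPM in the other liver libraries. EGFL7 gave 408 CPM of this sum. PECAM1 (73.4 CPM) and TIE1 (56.1 CPM) were also highest in liver 67, and TEK (17.2 CPM) was not.

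A gene was called differentially expressed (DEG) when its FDR did not exceed 0.05 and the absolute value of its log2 fold change reached 2, with positive values for genes higher in backfat. The junction genes fell into 2 sets. CDH1, CDH2, CLDN1, CLDN2 and GJB1 were DEGs higher in liver, which is 5 of 9 beside 11.2% of all genes tested. CDH11, CDH13 and GJA1 were DEGs higher in backfat, which is 3 of 9 beside 11.1% of all genes. OCLN passed the FDR but not the fold threshold, so that all 9 genes were at an FDR of at most 0.05 beside 55.0% of all genes. The 5 libraries of a tissue did not overlap with those of the other tissue for any of the 9 genes. For 6 of them every liver library was above every backfat library, as for 19.7% of all genes, and for 3 every backfat library was above every liver library, as for 22.9% of all genes. The median log2 fold change was -5.35 over the 9 genes and 0.00014 over all genes tested, and the median of its absolute value was 5.35 against 0.808. The plot of CPM by library shows these ranges.

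**Figure D1:**
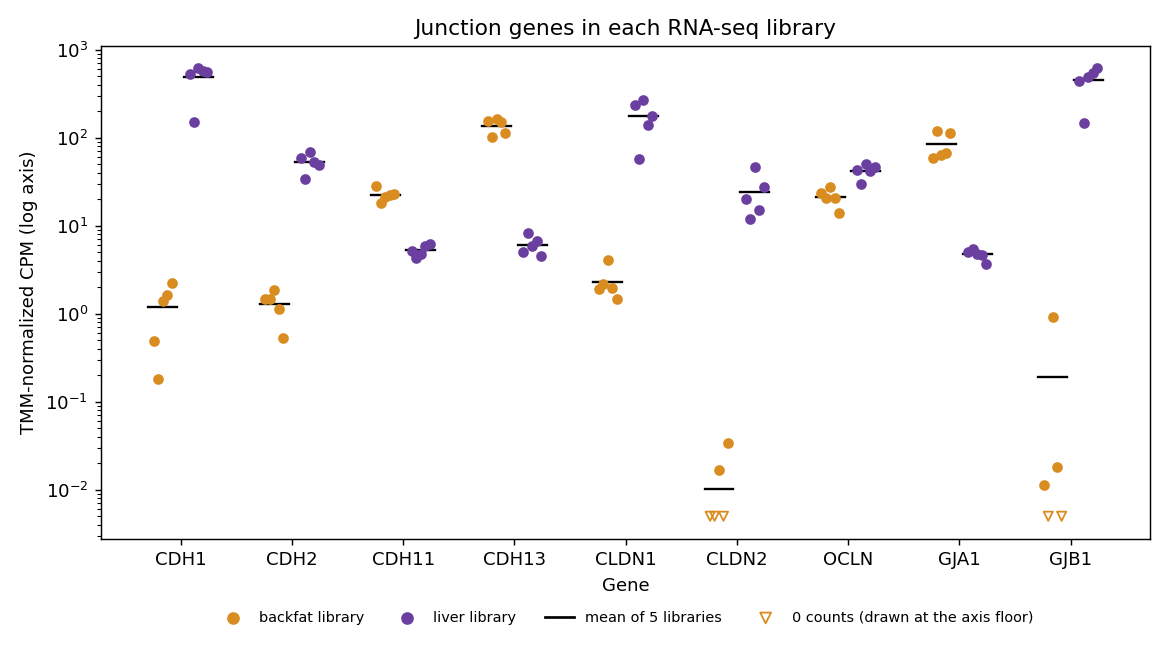
Normalized expression (CPM, log axis) of the 9 junction genes in the 5 backfat and 5 liver libraries. Points are libraries, bars are means of 5 libraries and open triangles are libraries with 0 counts, drawn at the floor of the axis. CDH1, CLDN1 and GJB1 reach over 50 CPM in every liver library, while CDH13 and GJA1 do so in every backfat library.

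CDH1 (ENSSSCG00000025652), which encodes E-cadherin, the classical cadherin of epithelia, lies on chromosome 6 at 18075487-18155986 on the minus strand of Sscrofa11.1 (RefSeq annotation). In liver it was at 527, 150, 615, 578 and 560 CPM in boars 65, 67, 69, 71 and 72. In backfat of the same boars it was at 0.485, 0.183, 1.4, 1.62 and 2.23 CPM. The lowest liver library was 67.2-fold above the highest backfat library, and 236-fold without liver 67, which lay far below the other 4 liver libraries. The means were 486 ± 190 CPM (SD, n = 5) in liver and 1.18 ± 0.840 CPM in backfat, and the log2 fold change was -8.69 (SE 0.75, edgeR quasi-likelihood test, Benjamini-Hochberg FDR 9.40e-07). Without liver 67 it was -8.96.

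CDH2 (ENSSSCG00000003722) encodes N-cadherin, the classical cadherin of neurons and mesenchyme that hepatocytes also carry. Its transcript lies on chromosome 6 at 112396713-112629073 (minus strand). Liver held 59.3, 33.8, 69.8, 53.5 and 49.7 CPM, and backfat 1.49, 1.46, 1.88, 1.12 and 0.532 CPM. Both tissues varied little beside the gap between them, and CDH2 was higher in liver by the fit, with a log2 fold change of -5.35 (SE 0.34, edgeR FDR 7.82e-08). The exons of CDH2 overlap those of LOC110261188 on the opposite strand by 139 bases, and the counting did not use strand, so that reads of this stretch could come from either gene. Per exon length, CDH1 exceeded CDH2 in all 5 liver libraries, by 2.37-fold in liver 67 and by 4.71- to 6.03-fold in the others, whereas in backfat the ratio of CDH1 to CDH2 ran from 0.0668 to 2.24. These ratios depend on the exon lengths used, 7744 bases for CDH1 and 4141 for CDH2. The longest RefSeq transcripts have 4267 and 4863 bases.

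CDH11 (ENSSSCG00000002795), or OB-cadherin, is a classical cadherin of fibroblasts and other mesenchymal cells, and lies on chromosome 6 at 25782746-25933753 (minus strand). Backfat held 28.0, 18.1, 21.0, 22.1 and 22.7 CPM and liver 5.19, 4.29, 4.82, 5.91 and 6.18 CPM. Every backfat library was at least 2.93-fold above the highest liver library. The log2 fold change was 2.08 (SE 0.18, edgeR FDR 8.40e-07), just past the fold threshold. It fell short of the threshold without backfat 65 (1.996, FDR 4.04e-06) and without liver 67 (1.98, FDR 1.97e-06), which leaves 7 of the 9 genes as DEGs in each case.

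CDH13 (ENSSSCG00000002684) encodes T-cadherin, which is held by a lipid anchor instead of a transmembrane segment and is known as a receptor of adiponectin. It spans chromosome 6 at 4809752-5832188 (minus strand). Backfat held 156, 102, 165, 151 and 114 CPM, while liver held 4.99, 8.26, 5.84, 6.76 and 4.53 CPM. The lowest backfat library was 12.4-fold above the highest liver library, and the log2 fold change was 4.50 (SE 0.23, edgeR FDR 1.85e-08). The highest liver value was in liver 67. Per length, CDH13 was 5.79- to 9.09-fold above CDH11 in backfat and 0.848- to 2.23-fold in liver (at most 1.4-fold without liver 67), without overlap of the libraries. The exon lengths used were 4545 bases for CDH13 and 5263 for CDH11. Their longest RefSeq transcripts have 2142 and 5938 bases, so that the ratios in each tissue depend on the length used.

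The 250 bases before the RefSeq start were read from the Sscrofa11.1 genome, as the stretch in which promoter motifs would lie. The sequences of CDH1 and CDH2 are shown because these are the 2 cadherins among the 9 genes that were higher in liver. They are the regions chr6:18155987-18156236 and chr6:112629074-112629323, both on the minus strand and printed 5′ to 3′ towards the gene, and capitals mark the letters of the motifs searched on both strands.
CDH1: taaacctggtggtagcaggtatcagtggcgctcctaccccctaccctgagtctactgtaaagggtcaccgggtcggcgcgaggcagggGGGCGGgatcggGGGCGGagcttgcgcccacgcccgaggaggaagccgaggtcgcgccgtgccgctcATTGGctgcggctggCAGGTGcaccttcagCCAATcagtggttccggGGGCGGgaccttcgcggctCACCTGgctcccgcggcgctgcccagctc
CDH2: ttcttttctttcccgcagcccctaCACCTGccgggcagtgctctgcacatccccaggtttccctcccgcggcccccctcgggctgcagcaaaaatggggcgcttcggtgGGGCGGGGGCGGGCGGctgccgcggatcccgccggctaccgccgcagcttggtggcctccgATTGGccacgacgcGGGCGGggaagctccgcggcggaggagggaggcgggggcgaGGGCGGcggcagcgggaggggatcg
The TATA box was searched as TATAAA and the box read by the factor NF-Y as CCAAT. The GC box of Sp1 was searched as GGGCGG, and the E-box of the type bound by Snail and ZEB factors as CAGGTG. A part of the HNF1 site was searched as GTTAAT, and the AP-1 site as TGAGTCA. The CDH1 stretch held 2 E-boxes, at -80 to -75 and on the other strand at -29 to -24 from the start, with 3 GC boxes and 2 CCAAT boxes between and around them. CDH2 held 1 E-box on the other strand at -226 to -221, 1 CCAAT box on the other strand at -80 to -76 and 5 GC boxes, some of which overlap each other. CAGGTG was found before 19.6% of 19531 gene starts of the genome, CCAAT before 31.9% and GGGCGG before 45.9%. The number of CpG dinucleotides was 24 for CDH1 and 30 for CDH2, beside a median of 12 over all gene starts. A match of letters is a description of the sequence and not a bound site, and methylation of these stretches was not analysed here.

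CLDN1 (ENSSSCG00000040904), a sealing claudin found in hepatocytes and in epidermis, lies on chromosome 13 at 127714857-127730628 (minus strand). Liver held 236, 57.5, 266, 141 and 177 CPM and backfat 1.89, 2.2, 4.09, 1.98 and 1.46 CPM. The lowest liver library was 14.1-fold above the highest backfat library, and 34.5-fold without liver 67. The log2 fold change was -6.24 (SE 0.47, edgeR FDR 3.02e-07) and -6.76 without backfat 69 and liver 67, which held the highest backfat and the lowest liver value.

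CLDN2 (ENSSSCG00000037234), a claudin that forms channels for cations in leaky epithelia, lies on chromosome X at 87352695-87355724 (plus strand). Liver held 20.4, 12, 46.1, 15.1 and 27.4 CPM. In backfat 3 libraries had 0 counts, backfat 69 had 1 count and backfat 72 had 2. With 3 backfat counts and 4922 liver counts in all, the ratio of pooled normalized counts was 2790 (exact 95% Poisson interval 953 to 13500), an interval that covers counting error only. The fitted log2 fold change was -11.02 (SE 0.67, edgeR FDR 5.36e-08) and depends at such counts on the prior count of the fit. Without backfat 72, which held 2 of the 3 backfat counts, it was -11.93.

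OCLN (ENSSSCG00000021514) encodes occludin, a protein of tight junction strands that is present in epithelium and endothelium, and lies on chromosome 16 at 47600175-47652435 (plus strand). Backfat held 23.6, 20.6, 27.5, 20.8 and 14.0 CPM and liver 42.6, 30.1, 51.0, 42.5 and 46.1 CPM. The ranges were separated by 1.1-fold only (1.55-fold without liver 67), and the log2 fold change was -0.996 (SE 0.20, edgeR FDR 0.00101). OCLN was the gene of the 9 whose difference depended on the scaling. With library size alone, without the TMM factors, the log2 fold change was -0.29 with an edgeR FDR of 0.316, while that scaling moved the median over all genes by 0.71. Its mean TPM (counts per exon length, scaled to the sum of all genes and without TMM) was 11.3 ± 3.26 in backfat and 11.3 ± 5.07 in liver.

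GJA1 (ENSSSCG00000004241), which encodes connexin 43, lies on chromosome 1 at 40988818-41002129 (minus strand). Backfat held 59.6, 119, 63.1, 68.0 and 112 CPM and liver 5.01, 5.45, 4.82, 4.61 and 3.72 CPM. Boars 67 and 72 were the 2 high backfat libraries. The lowest backfat library was still 10.9-fold above the highest liver library, and the log2 fold change was 4.16 (SE 0.25, edgeR FDR 5.12e-08).

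GJB1 (ENSSSCG00000012394), which encodes connexin 32, lies on chromosome X at 57241990-57249496 (plus strand). Liver held 441, 147, 496, 546 and 616 CPM. Backfat held 0.0113, 0, 0.925, 0.018 and 0 CPM, from 1, 0, 55, 1 and 0 counts. Of the 57 backfat counts, 55 were thus in backfat 69. Over all libraries the ratio of pooled normalized counts of liver to backfat was 2580 (exact 95% Poisson interval 1990 to 3400), and without backfat 69 it was 60100 (16600 to 496000) on 2 backfat counts. The fitted log2 fold change was -11.23 (SE 1.31, edgeR FDR 1.32e-05) with backfat 69 and -15.47 (edgeR FDR 3.70e-08) without it.

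In backfat 69, GJB1 stood at 0.206% of its liver mean. Of the 8 hepatocyte markers, 5 stood between 0.101% and 0.178% of their liver means in this library, with ALB at 0.111%, APOA2 at 0.126%, TTR at 0.101%, SERPINA1 at 0.131% and FGB at 0.178%. The other 3 were at 0.0439% (TAT), 1.04% (CYP2E1) and 3.31% (APOA1). SERPINA1 was as high in backfat 72, at 0.133%, while the other 7 were highest in backfat 69. In CPM, SERPINA1 was at 0.0168 in backfat 69, the level that 1 count gave for CLDN2 there, and at 0.0172 in backfat 72. Its percentages in these libraries thus lie at the floor of the counts. In the other backfat libraries ALB was at most at 0.00107% and GJB1 at most at 0.00401%. APOA2, TTR and TAT were at most at 0.004% there and FGB at most at 0.0104%. CYP2E1 (0.62% to 0.754%) and APOA1 (1.15% to 1.46%) were far less below their level in backfat 69. CDH1 in backfat did not move with backfat 69, since it was at 0.287% of its liver mean there but at 0.334% in backfat 71 and 0.459% in backfat 72. CLDN1 was at 2.33% in backfat 69 and between 0.831% and 1.25% in the others, and CDH2 between 1.0% and 3.54% in all 5. Schwann cell and nerve markers (3 of 4 matched) were also highest in backfat 69, at 47.3 CPM in sum against 6.19 to 13.6 CPM. So were bile duct markers (23.8 against 4.2 to 8.41 CPM), smooth muscle and pericyte markers (1070 against at most 821 CPM) and endothelial markers (1120 against at most 912 CPM). SPP1 gave 21.3 CPM of the bile duct sum, while EPCAM was lowest in backfat 69 (0.185 CPM). ACTA2 and PDGFRB of the smooth muscle list and TIE1 and EGFL7 of the endothelial list were not highest in backfat 69. The part of these other cell types in the GJB1 value was not tested.

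**Figure D2:**
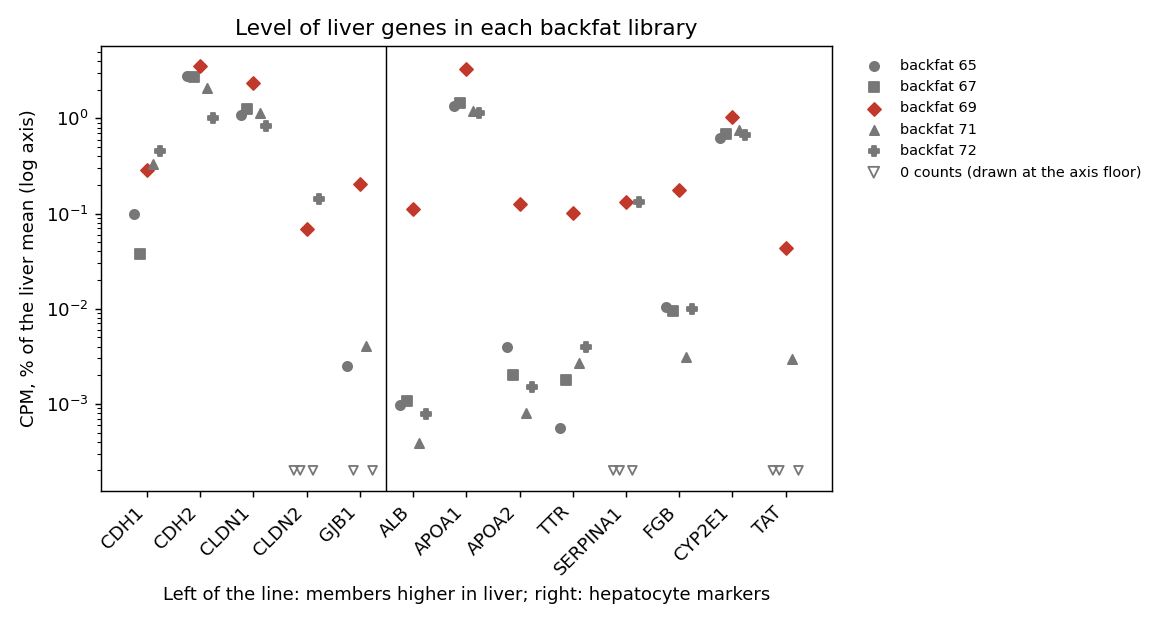
CPM of 5 junction genes and 8 hepatocyte markers in each backfat library as percent of the liver mean (log axis). Backfat 69 is the red diamond and open triangles are 0 counts. GJB1, ALB, APOA2 and TTR are between 0.101% and 0.206% in backfat 69 and at most 0.00401% in the other 4 libraries. CYP2E1 and APOA1 are at 1.04% and 3.31% in backfat 69, and at 0.62% to 0.754% and 1.15% to 1.46% in the others. SERPINA1 is as high in backfat 72 as in backfat 69.

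The same stretches of 250 bases are shown for the pair of connexins, which were DEGs in opposite directions. They are chr1:41002130-41002379 on the minus strand for GJA1 and chrX:57241740-57241989 on the plus strand for GJB1, with capitals as above.
GJA1: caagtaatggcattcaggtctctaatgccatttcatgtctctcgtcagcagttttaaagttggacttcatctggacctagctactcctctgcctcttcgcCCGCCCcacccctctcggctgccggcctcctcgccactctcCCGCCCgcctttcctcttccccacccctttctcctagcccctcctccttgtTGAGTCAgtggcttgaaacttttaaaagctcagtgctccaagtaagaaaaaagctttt
GJB1: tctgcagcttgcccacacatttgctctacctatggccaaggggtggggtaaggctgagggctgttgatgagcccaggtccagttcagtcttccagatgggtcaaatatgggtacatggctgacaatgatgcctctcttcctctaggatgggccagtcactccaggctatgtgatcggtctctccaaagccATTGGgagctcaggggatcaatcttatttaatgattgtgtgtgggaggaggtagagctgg
GJA1 held the AP-1 letters TGAGTCA at -58 to -52, which 2.89% of all gene starts hold and none of the other 3 stretches shown, as well as 2 GC boxes on the other strand. GJB1 held 1 CCAAT box on the other strand at -60 to -56 and no GC box. The number of CpG dinucleotides was 8 for GJA1 and 1 for GJB1, beside a lower quartile of 4 over all gene starts. TATAAA (9.76% of gene starts) and GTTAAT (5.89%) were found in none of the 4 stretches shown. The starts are those of RefSeq and were not checked against the Ensembl models used for counting.

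Per exon length, the members differed in order between the tissues. In backfat CDH13 was the most abundant at 93.1 ± 23.4 TPM (SD, n = 5), followed by GJA1 at 75.5 ± 29.9 TPM, which it overlapped. CDH11 at 13.3 and OCLN at 11.3 TPM followed and overlapped each other, and GJA1 lay above CDH11 in every library. CLDN1 (2.09 TPM), CDH2 (0.981 TPM), CDH1 (0.433 TPM), GJB1 (0.157 TPM) and CLDN2 (0.00755 TPM) came last, each overlapping its neighbour, with CLDN1 below OCLN in every library. Without backfat 69 the mean of GJB1 was 0.00752 TPM and that of CLDN2 0.00647 TPM, and GJB1 then lay below CDH1 in every library. In liver GJB1 was first at 222 ± 110 TPM, before CDH1 at 99.6, CLDN1 at 87.6, CDH2 at 20.3, OCLN at 11.3 and CLDN2 at 11 TPM, all of them overlapping their neighbours. Within each of the 5 liver libraries, GJB1 lay above CDH1 and CLDN1 above CDH2. Without liver 67 the ranges of these pairs no longer overlapped, with GJB1 at 267 ± 57.3 TPM (n = 4). GJA1 (2.04 TPM), CDH13 (1.92 TPM) and CDH11 (1.5 TPM) overlapped each other and lay below CLDN2 in every library. Within the connexin pair, the ratio of GJB1 to GJA1 was 29.7 to 183 in liver and 0 to 0.0162 in backfat. It was 97.2 to 183 without liver 67 and at most 0.000293 without backfat 69.

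**Figure D3:**
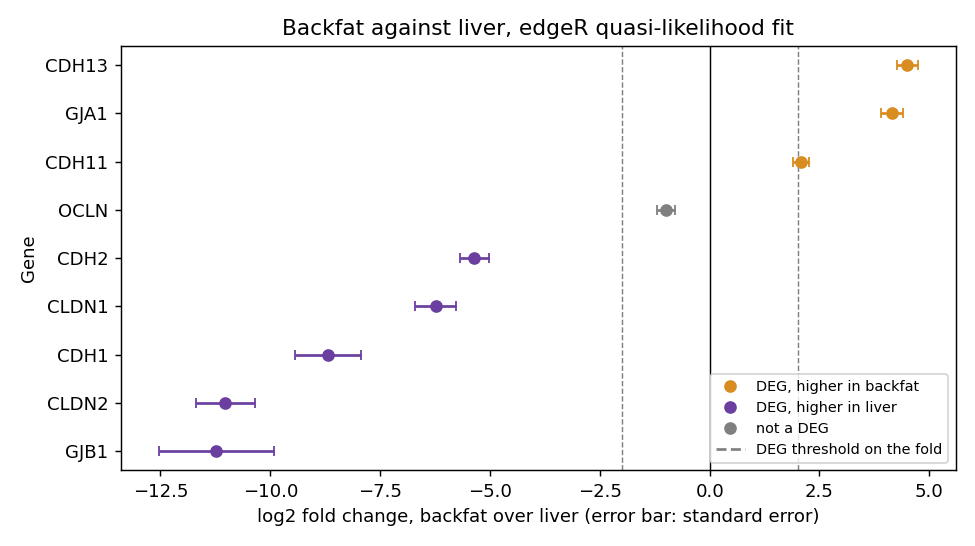
Log2 fold change of backfat over liver for the 9 genes with standard errors derived from the F statistic of the test. Dashed lines mark a log2 fold change of 2 in either direction, and OCLN at -0.996 is the gene that does not reach them.

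The matched genes of each family were then read together, as the share of their summed TPM held by each gene. Of the other listed symbols, 2 cadherins, 3 claudins and 3 connexins had no matched gene, so that the shares leave them out. The shares use the exon length of the counts, and no other length was tried for them. Of 21 cadherins, CDH13 held 37.7 ± 6.17% in backfat, second to the endothelial cadherin CDH5 with 52.4 ± 6.91%. In liver CDH1 held 68.1 ± 13.2%, CDH2 15.0 ± 2.48% and CDH5 10.2 ± 6.11%. The CDH1 share was lowest in liver 67, at 44.9%, where the CDH5 share was highest, at 20.4%, and without this library the shares were 73.8 ± 3.05% and 7.61 ± 2.51%. Of 20 claudins, CLDN5 of endothelium and CLDN4 held 56.4 ± 18.1% and 37.5 ± 17.9% in backfat, which left little for CLDN1 and CLDN2. In liver CLDN3 (24.3 ± 6.05%) and CLDN1 (24.1 ± 6.35%) were followed by CLDN4 (19.3 ± 1.76%) and CLDN14 (15.8 ± 3.73%). Of 17 connexins, not counting GJB2, GJB1 held 85.8 ± 11.5% in liver (90.8 ± 1.62% without liver 67), and in backfat GJA1 held 40.8 ± 10.5%, ahead of the vascular connexins GJA4 (25.6 ± 8.77%) and GJA5 (15.9 ± 2.80%). The sums of the families, in TPM and thus without TMM, overlapped between the tissues. Sums with TMM scaling were not made. They were 253 ± 77.3 TPM in backfat and 139 ± 71.4 TPM in liver for cadherins, 227 ± 43.8 and 331 ± 180 TPM for claudins, and 184 ± 49.7 and 248 ± 112 TPM for connexins.

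**Figure D4:**
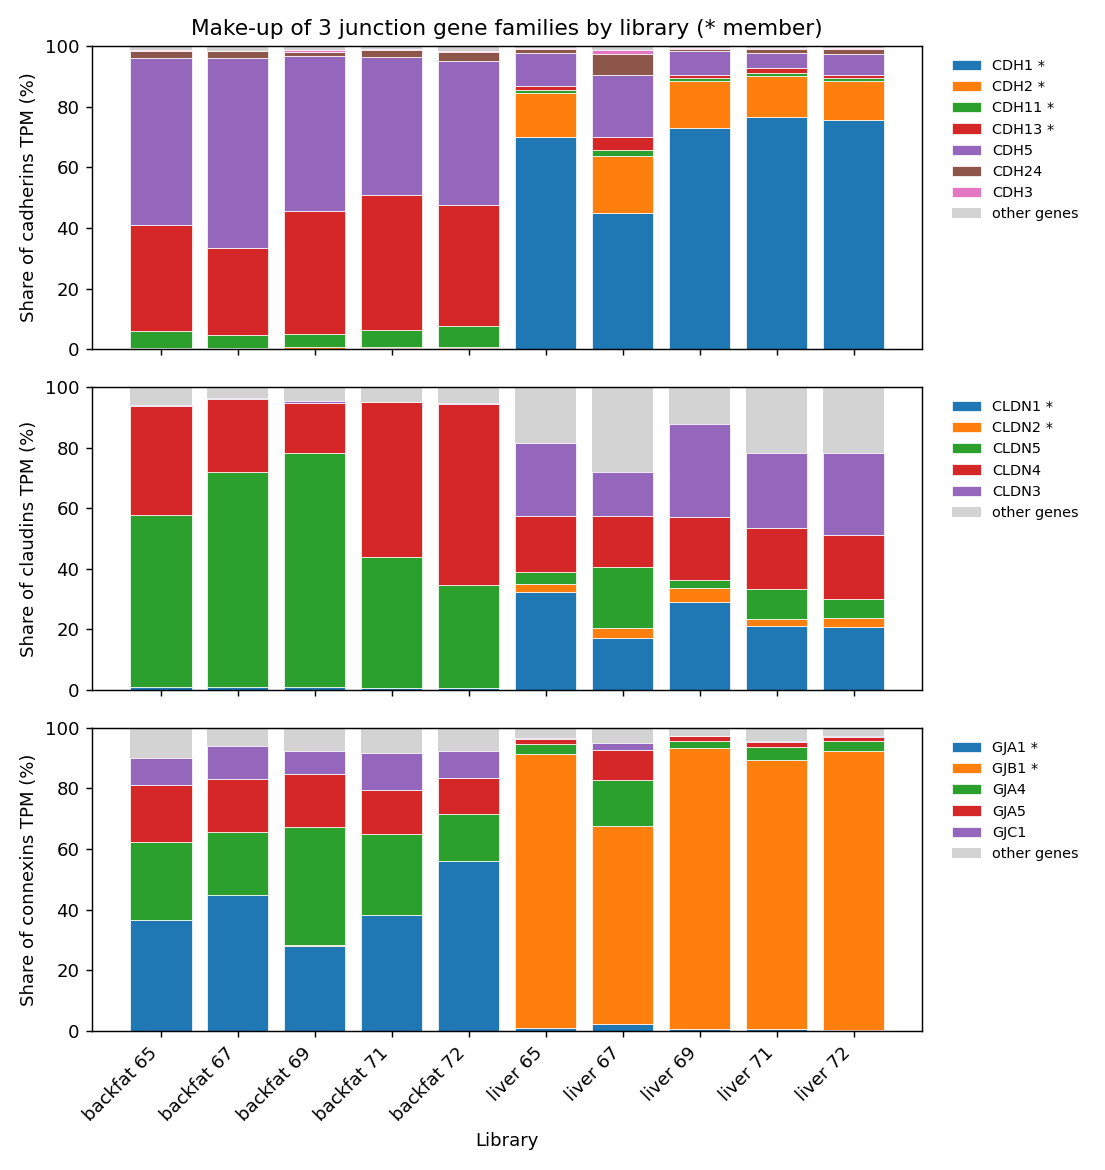
Share of the summed TPM of cadherins, claudins and connexins held by each gene in each library (percent). Stars mark the junction genes described here other than OCLN, which belongs to none of these families. Liver 67 shows the lowest share of CDH1 and GJB1 among the liver libraries.

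Other genes of the same junctions were read from lists of cadherins, adherens junction partners, claudins, tight junction genes, connexins with pannexins, and desmosome genes, which held 98 symbols, of which 59 were tested. Of these, 19 were called with the higher level in liver and 9 with the higher level in backfat, beside 11.2% and 11.1% of all genes. Desmosome genes, whose products anchor intermediate filaments, held 5 DEGs higher in liver of 6 tested and none higher in backfat, with a median log2 fold change of -5.75. They included the desmosomal cadherin DSG2 (-6.43) and the plaque proteins DSP (-6.59) and PKP2 (-5.89). DSP was at 87.0 ± 35.3 CPM in liver and 0.909 ± 0.513 CPM in backfat.

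Among the 11 other claudins tested, liver was the higher tissue for 5 DEGs and backfat for 1. CLDN14 showed a log2 fold change of -11.99, with 162 ± 52.2 CPM in liver and 0.0405 ± 0.0729 CPM in backfat, CLDN3 of -7.98 and CLDN23 of -3.30, while CLDN11, a claudin of myelin and testis, was higher in backfat at 4.90. CLDN4, which was abundant in both tissues, did not pass the FDR (-0.61, edgeR FDR 0.168). Of the 11 other tight junction genes, the coxsackievirus and adenovirus receptor CXADR (-7.72), the scaffold TJP3 (-6.65) and MARVELD3 (-6.43), a relative of occludin, were higher in liver. JAM2 (3.34) and ESAM (2.25), adhesion molecules of endothelium, were higher in backfat.

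Of 10 other cadherins tested, backfat was the higher tissue for 4 DEGs and liver for 2. CDH5, or VE-cadherin, was at 177 ± 43.3 CPM in backfat and 32.6 ± 9.31 CPM in liver (log2 fold change 2.44), and CDH19 (4.91) and CDH18 (3.40) were below 3 CPM in every library. Of the 10 adherens junction partners, VCL (vinculin, 2.35) was higher in backfat, and the nectins NECTIN1 (-5.32) and NECTIN3 (-2.77), which start adherens junctions, were higher in liver. CTNNA1, CTNNB1 and CTNND1, which encode catenins bound to cadherins, did not pass the FDR, with CTNNA1 at 0.34 (edgeR FDR 0.0787), CTNNB1 at 0.46 (edgeR FDR 0.220) and CTNND1 at 0.14 (edgeR FDR 0.591). JUP, which encodes the catenin plakoglobin of adherens junctions and desmosomes, passed the FDR below the fold threshold and was higher in backfat (1.26, edgeR FDR 0.000166). Among 11 other connexins and pannexins, GJC1 (connexin 45, 2.81) was higher in backfat and PANX2 (-2.91) higher in liver.

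**Figure D5:**
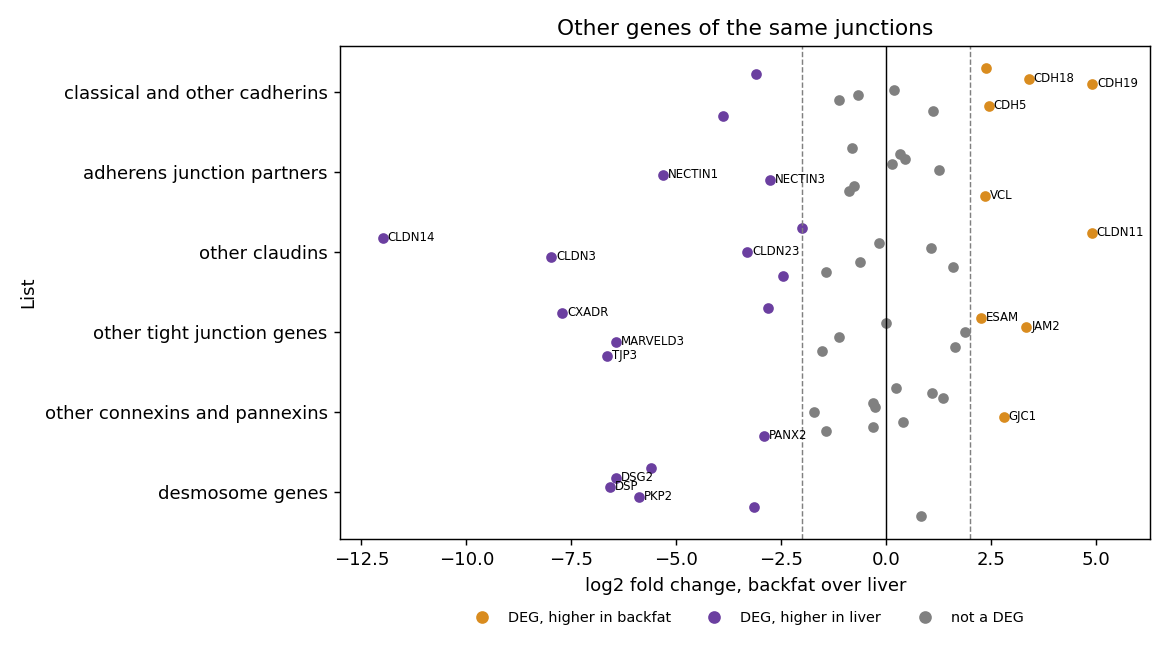
Log2 fold change of backfat over liver for 59 other genes of the same junctions, by list. Dashed lines mark a log2 fold change of 2 in either direction, and the DEGs named in the text are labelled. Desmosome genes lie to the left, with 5 of 6 higher in liver.

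Several of the other cell type marker sums did not overlap between the tissues. Those of lymphocytes, mesothelium, Schwann cells and nerve did overlap, as did skeletal muscle through liver 67. Endothelial markers summed to between 789 and 1120 CPM in backfat and between 198 and 555 CPM in liver. Fibroblast and stromal progenitor markers (5 of 5 matched) summed to between 36400 and 67700 CPM in backfat and between 610 and 1060 CPM in liver, and bile duct markers (5 of 6 matched) to between 4.2 and 23.8 CPM and between 49.4 and 113 CPM. Keratinocyte markers (3 of 5 matched) stayed between 6.07 and 7.55 CPM in backfat and between 9.75 and 22.5 CPM in liver. Smooth muscle and pericyte markers (5 of 5 matched) summed to between 729 and 1070 CPM and between 174 and 410 CPM. Macrophage markers (4 of 4) summed to between 121 and 240 CPM and between 247 and 395 CPM, and lymphocyte markers (4 of 4) to between 28 and 87.1 CPM and between 36.9 and 69.2 CPM. The matched mesothelium marker (1 of 4) stayed below 1 CPM in all libraries. Skeletal muscle markers (3 of 5) ran from 6.95 to 404 CPM in backfat, and reached 147 CPM in liver 67 against at most 1.3 CPM in the other liver libraries. The part of cell type make-up in the values of the junction genes was not tested.

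For each of the 9 genes, the gene with the most similar profile was sought among the other 8 and the 59 other junction genes, as the smallest root-mean-square difference of log2 CPM over 10 libraries after centring. CDH13 and GJA1 were nearest to each other (0.554). CLDN1 was nearest to DSP (0.326), CDH2 to DSC2 (0.413), CDH11 to JAM3 (0.229) and OCLN to AFDN (0.224). CLDN2 was nearest to CLDN3 (0.621), GJB1 to CLDN14 (0.818) and CDH1 to CLDN2 (1.01), so that CDH1 had the least close neighbour. These differences hold mainly the gap between the tissues. For CLDN2, CLDN3 and CLDN14, and for GJB1 outside backfat 69, backfat lay below the 0.1 CPM added before the log on average, which limits that gap. In the fit, CLDN2 (-11.02) and CLDN3 (-7.98) lay further apart. The neighbours of CLDN2, GJB1 and CDH1 thus depend on the added value, and no other value was tried.

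The spread within a tissue differed between genes. In liver the coefficient of variation was 39.2% for CDH1, 46.9% for CLDN1, 56.1% for CLDN2 and 40.3% for GJB1, beside a median of 29.0% over the genes at 1 CPM or more. Without liver 67 it was 6.44% for CDH1, 27.5% for CLDN1, 49.7% for CLDN2 and 14.2% for GJB1, beside a median of 22.2%. With all 5 libraries it was 13.6% for GJA1, 14.7% for CDH11, 18.2% for OCLN, 24.5% for CDH13 and 24.9% for CDH2. Liver 67 was the lowest of the 5 for CDH1, CDH2, CDH11, CLDN1, CLDN2, OCLN and GJB1, and the highest for CDH13 and GJA1. In backfat, CDH11 and CDH13 varied by 16.2% and 20.1%, close to the median of 20.3%, and GJA1 by 33.9%.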

How the data were processed

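The RNA-seq libraries of backfat and liver (5 each) were used. Per the file headers and the methods of the study, the authors used Trimmomatic for trimming and HISAT2 for alignment (Sscrofa11.1) and deposited raw counts per gene from featureCounts 2.0.1 (paired ends, exons of Ensembl release 99, no strand setting). The deposited methylation bias files of the WGBS libraries give no position in the genome and were not used.

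Counts were tested in R 4.3.3 with edgeR 4.0.16 (filterByExpr by tissue, TMM, quasi-likelihood test, Benjamini-Hochberg adjustment over 16275 genes, tissue as the sole term). CPM use TMM-scaled library sizes, whose factors were 1.18 to 1.44 in backfat and 0.649 to 0.916 in liver. The SE of each log2 fold change was derived from its size and the F statistic of the test. Where a fold depends on the prior count, so does its SE. TPM use the exon length in the count table. Total counts ran from 43820042 to 61772737, and Poisson intervals cover counting error only. DESeq2 1.42.0, limma 3.58.1 (voom), other scalings and filters, a boar block and leaving out libraries were alternatives. The fit was tested on simulated data. Symbols were matched through RefSeq gene tables, whose positions and starts are on Sscrofa11.1, the build of the counts.

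The column names of the counts carry boar numbers and the study took both tissues from the same 5 boars, which pairs the libraries. No label ties a boar number to a replicate number. The correlations of deviations within boars were 0.238, 0.107, 0.0490, 0.165 and 0.0984 for boars 65, 67, 69, 71 and 72, and the highest with another boar were 0.0566, 0.0865, 0.131, 0.00213 and 0.0626, so that boar 69 was closer to another boar. The members, the lists of other junction genes and the markers were chosen with earlier results of these data known. Named among the other junction genes were up to 3 DEGs per list and direction with the largest change, of those with a mean of at least 1 CPM in a tissue. The other genes given with values (CLDN4, CLDN5, GJA4, GJA5, the catenins and JUP) were chosen after their values were seen. Profiles used a pseudocount of 0.1 CPM.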

Additional observations from a re-analysis of the deposited data

Results flagged for a closer look

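In the 18 sets of 5 libraries (9 genes in each tissue), 3 held a library far from the others, with a gap to its nearest neighbour of over 0.71 of the range of the set. For 5 independent values of a normal distribution, chance gives this in about 1 set in 20. The sets here are CPM, some of them from very few counts, and share the same libraries. The number flagged can thus not be read against that rate. CDH1 was lowest in liver 67 at 150 CPM (gap 0.811 of the range), the library with 44.5% mitochondrial counts. CLDN1 was highest in backfat 69 at 4.09 CPM (0.719), and GJB1 was highest in backfat 69 at 0.925 CPM (0.981). Backfat 69 was the backfat library with the highest sum of hepatocyte markers, most of which was APOA1. The causes were not tested.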

How the results depend on the processing

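No gene of the 9 changed direction in any alternative, and 167 of 169 values of single genes kept their call. The exceptions were CDH11 without backfat 65 and without liver 67. OCLN was a DEG in no fit, so its call could not be lost, but its edgeR FDR rose from 0.00101 to 0.316 with library size alone. With boar as replicate block (a paired fit) there were 3670 DEGs (3633 without), 8 of the 9 genes were called and no call changed. Requiring at least 10 counts in every library left 1852 DEGs, 3 genes higher in liver in place of 5, since CLDN2 and GJB1 were not tested there, and 13 other junction DEGs in place of 28. Leaving out each library in turn gave 3716 to 3964 DEGs, 7 to 8 genes called, 5 higher in liver, 2 to 3 higher in backfat and 28 to 29 other junction DEGs. Library size alone put 68.2% of DEGs higher in backfat against 49.9% with TMM. DESeq2 gave 4899 DEGs, limma-voom 3718 and no filter 5247. Leaving out backfat 69 and liver 67 together, chosen after seeing the data, gave 3898 DEGs and 8 genes called. The log2 fold change of GJB1 ran from -15.71 to -10.56. With the longest RefSeq transcript as length, 7 of 9 genes kept their rank in backfat and 5 of 9 in liver. Without backfat 69 all 9 kept their rank in backfat, and without liver 67, 7 of 9 in liver (both chosen after seeing the data). At 3 backfat counts of CLDN2 and 2 of GJB1 outside backfat 69, depth limits the size of their folds.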
